A study of Mus musculus with 7 samples.

Results

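The nuclear genes of the respiratory chain and of ATP synthase were followed in cells of the embryonic mouse cerebral cortex after knockdown of Trnp1, which encodes a nuclear protein found in progenitors there. They were chosen by gene symbol, as the numbered Ndufa, Ndufb, Ndufc, Ndufs and Ndufv genes, the 4 Sdh genes, Cyc1, and genes whose symbols begin with Uqcr, Cox4 to Cox8 or Atp5. The symbols gave 81 of the 19938 genes measured, with 34 in complex I, 4 in complex II, 9 in complex III, 17 in complex IV and 17 in complex V. Cox7c and Ndufb4 had only probe sets that carry several symbols and were not used here.

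All 7 samples came from C57BL/6 cortices of undetermined sex, electroporated on embryonic day 13 with constructs that carried green fluorescent protein (GFP), the marker of transfected cells. GFP-positive cells were sorted 24 h later, on embryonic day 14, and total RNA was measured on 1 Affymetrix array per sample. The 4 control samples are labelled WT and the 3 others Trnp1 knockdown, all as biological replicates. The construct of the controls, the knockdown sequence and the number of embryos per sample are not given in the sources used here. The p-values set a difference between groups against the spread between these samples. How far the samples stand for other embryos is not known.

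Electrons from NADH enter the chain at complex I (Nduf genes), and those from succinate at complex II (Sdh genes), which is also an enzyme of the citric acid cycle. They pass through complex III (Uqcr genes and Cyc1) and cytochrome c to complex IV (Cox genes), which reduces oxygen. Complexes I, III and IV pump protons across the inner mitochondrial membrane, and complex V (Atp5 genes), the ATP synthase, uses the proton gradient to make ATP. The mitochondrial genome encodes a few central subunits of complexes I, III, IV and V, and the other subunits, including every gene followed here, are nuclear. Neural progenitors rely strongly on glycolysis, and mitochondrial respiration gains weight as neurons differentiate.

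Levels are log2 values after RMA, the authors' array normalization, and a difference is knockdown minus control on that scale. The array medians lay between 4.398 and 4.611 over all probe sets. Trnp1 itself had log2 levels of 5.07, 4.999, 5.24 and 5.22 in control replicates 1 to 4 and of 4.802, 4.85 and 4.55 in knockdown replicates 1 to 3. Every knockdown array lay below every control array, a difference of -0.40 (SE 0.12) that did not pass over all genes (adjusted p = 0.825 by limma). Taken alone, an exact two-sided permutation test gave p = 0.0286, the smallest that 35 splits allow. Markers of radial glia were bright, with mean levels over the 8 markers between 8.35 and 9.07 in controls and between 8.49 and 8.93 in knockdown samples. Several arrays stood apart in markers of other cells. All 7 markers of ventral interneurons were higher in the knockdown samples by their group means, with a mean level of 4.14 to 4.48 in controls and 4.55 to 6.41 in knockdown samples. Knockdown replicate 2 was the highest, with Dlx2 at 8.48 there and between 4.87 and 5.61 in the other 6 arrays. The markers were not alike, since Gad2, Dlx2, Dlx1 and Dlx5 differed by 1.07 to 2.14. Gad1, Nkx2-1 and Lhx6 differed only by 0.08 (SE 0.17), 0.11 (SE 0.12) and 0.12 (SE 0.24), within the spread of the arrays. All 7 endothelial markers were also higher by group means, at 4.04 to 6.64 in controls and 5.05 to 7.27 in knockdown samples, with control replicate 4 and knockdown replicate 1 the highest of their groups. All 7 microglial markers, all 5 measured erythroid markers, all 6 meningeal markers and 7 of 8 mural cell markers were higher by group means too. In each of these lists the ranges of the mean level overlapped between groups. Microglial markers had mean levels of 5.78 to 8.77 in controls and 6.71 to 7.96 in knockdown samples, and single markers differed by 0.025 to 0.62. Meningeal markers were dim, with a median difference of 0.14 and levels of 4.15 to 4.30 and 4.20 to 4.89. Of 5 intermediate progenitor markers 4 were lower, with a median of -0.15. Of 8 neuron markers 6 were lower, with a median of -0.45, and their levels relative to the control mean were -0.51, -0.34 and -0.010 in knockdown replicates 1 to 3. In these mixtures of sorted cells, fewer cells of a type and less RNA per cell cannot be told apart.

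The genes of the respiratory chain and ATP synthase were mostly lower in knockdown samples, but by small amounts, and 0 of 81 passed limma's test over all genes (smallest adjusted p = 0.825). Over all 19938 genes the share that passed was 0%, with a smallest adjusted p of 0.736. The group difference was below 0 for 72 of the 81 genes (88.9%) and above 0 for 9, against 50.2% below and 49.8% above 0 over all genes. Their median log2 difference was -0.27, with a range from -0.73 to 0.33, against -0.001 over all genes. At an unadjusted p under 0.05 there were 8 of these genes lower and 0 higher (9.88% lower), where 3.61% of all genes were lower and 2.2% higher. The groups did not overlap for 3 genes, all lower (3.7%), close to the 3.07% of all genes that were lower without overlap. None of the 81 was higher without overlap, as 2.59% of all genes were.

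Most of these genes are bright on the array, and bright genes as a class were lower in knockdown samples. Of the 2136 genes with a mean log2 level over 8, 76.5% were lower, with a median difference of -0.16. The 67 chain and synthase genes above that level included 64 lower (95.5%), with a median of -0.28. At an unadjusted p under 0.05 the share lower was the same, 10.4% of the 67 and 10.4% of the bright genes. Groups that did not overlap, with knockdown lower, were found for 2.99% of the 67 and 7.63% of the bright genes. The scaling between arrays moved both values. After cyclic loess normalization 60 chain and synthase genes were lower and 21 higher, with a median of -0.14, while 56.2% of the bright genes were lower, with a median of -0.032. After a further quantile normalization the counts were 67 and 14, with medians of -0.16 and -0.061. With the array medians set equal, which shifts the median of all genes to -0.11, they were 78 and 3, with medians of -0.37 and -0.27. In each of these scalings the median of the chain and synthase genes was lower than that of the bright genes, and the part of signal level in the result was not tested.

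**Figure D1:**
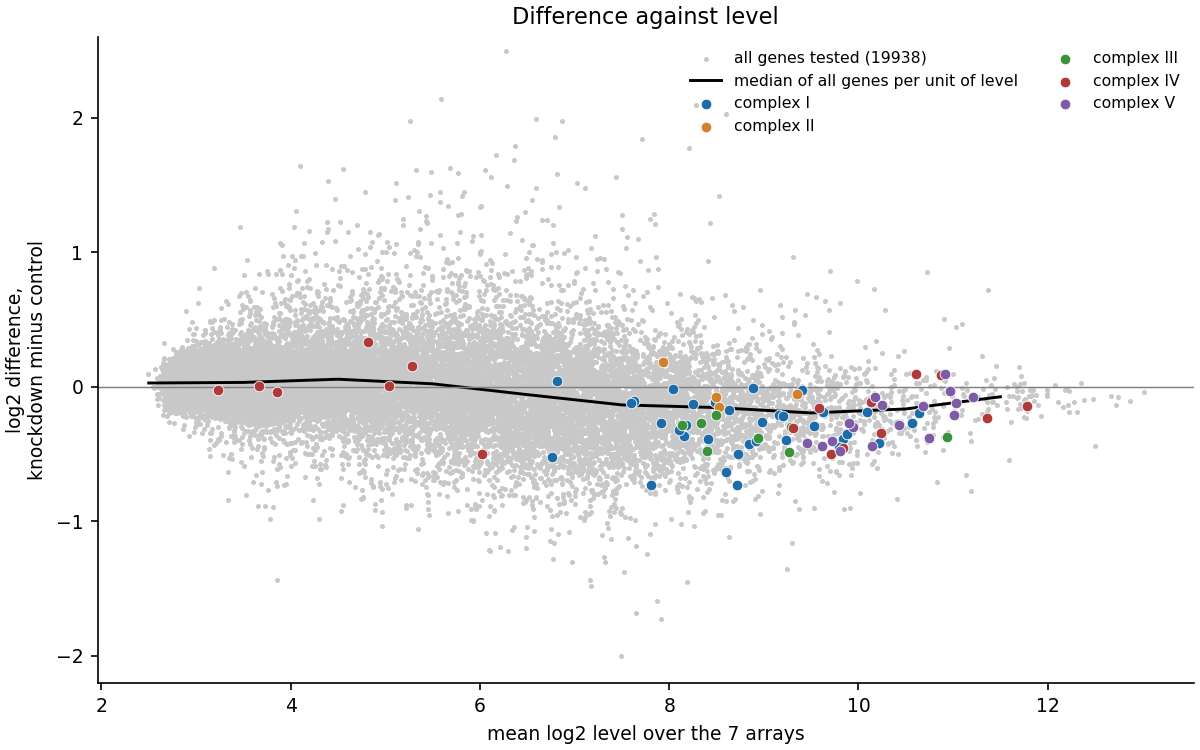
Log2 difference (knockdown minus control, vertical axis) against the mean log2 level over 7 arrays (horizontal axis) for all 19938 genes in grey and the 81 chain and synthase genes in colours by complex. The black line is the median of all genes per unit of level, and the coloured points lie mostly below 0 on the bright side, where the median of the genes over a level of 8 is -0.16.

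The lower signal came from 2 of the 3 knockdown arrays. Each gene's log2 level was set against its control mean, and the median of these over the 81 genes was -0.35, 0.060 and -0.54 in knockdown replicates 1, 2 and 3. It was -0.092, 0.026, 0.17 and -0.087 in control replicates 1 to 4. The 2136 bright genes showed the same order of knockdown arrays, with medians of -0.17, 0.023 and -0.31. Of the 81 genes, 67, 31 and 74 were below their control mean in knockdown replicates 1, 2 and 3. Knockdown replicate 2 was the highest knockdown array for 69 of the 81 genes, and replicate 3 the lowest for 55. Among the controls, replicate 3 was the highest for 50 genes and replicate 1 the lowest for 35. The standard deviation was larger in knockdown than in control samples for 67 of the 81 genes (82.7%), and for 56.4% of all genes.

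Single arrays therefore set the size of the difference. Without knockdown replicate 2 the median of the 81 genes was -0.44, against -0.25 for the 2136 bright genes. At an unadjusted p under 0.05, 33 of the 81 were lower (40.7%, where 7.63% of all genes were). The share of bright genes at that p was not counted with an array left out. When replicate 3 of the knockdown was left out, the median of the 81 genes was -0.12 with 59 lower, against -0.084 for the bright genes. At that p 1 of the 81 genes was lower (1.23%, against 2.39% of all genes). Leaving out knockdown replicate 1 gave -0.21 and 2 such genes (2.47%, against 2.35%). Leaving out control replicate 3 gave -0.17 and 2 such genes (2.47%, against 2.53%). Without control replicate 2 the values were -0.23 and 4 (4.94%, against 2.43%). The number that passed over all genes was 0 with each of the 7 arrays left out in turn. Knockdown replicate 2 is also the array with the highest ventral interneuron markers, whose part in its higher chain and synthase levels was not tested.

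**Figure D2:**
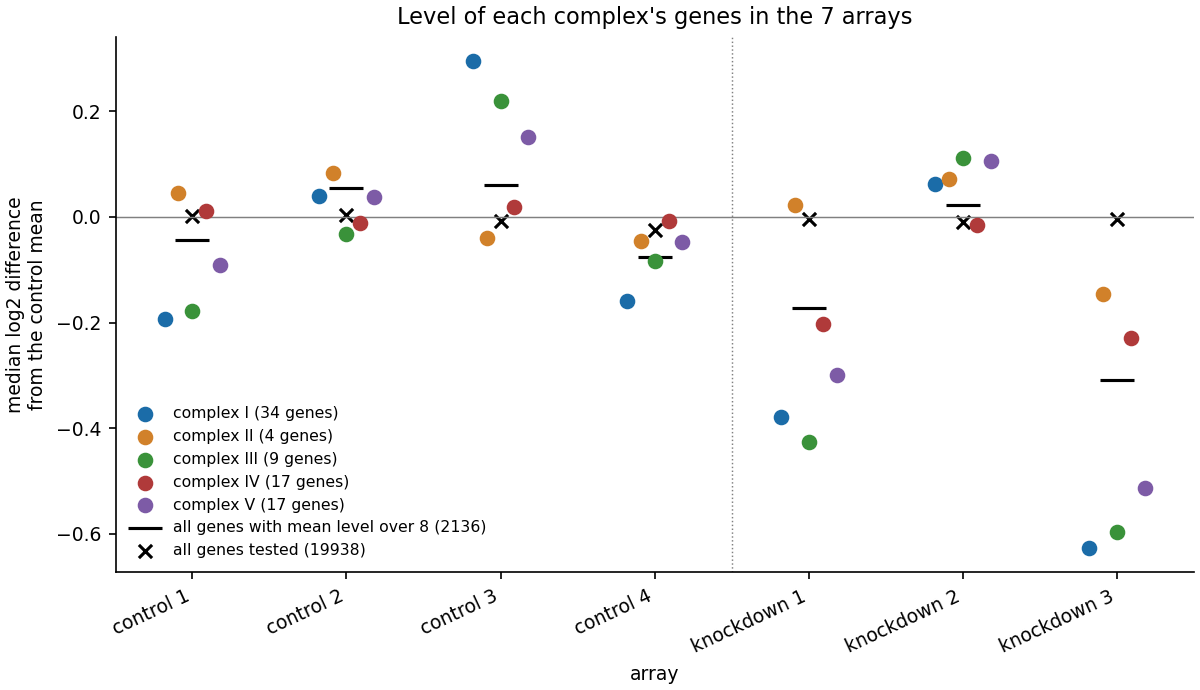
Median log2 difference from the control mean (vertical axis) over the genes of each complex in each of the 7 arrays (horizontal axis), with all genes as crosses and the 2136 genes with a mean level over 8 as bars. Complexes I, III and V reach -0.63, -0.60 and -0.51 in knockdown replicate 3 and lie at 0.063, 0.11 and 0.11 in knockdown replicate 2.

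Complex I, the NADH dehydrogenase and the largest complex of the chain, had 33 of its 34 measured genes lower and Ndufs1 higher (0.04, SE 0.13; -0.061 with the array medians set equal and -0.028 without control replicate 1), with a median of -0.28. Its level in each array was -0.38, 0.063 and -0.63 in knockdown replicates 1 to 3 and -0.19, 0.040, 0.29 and -0.16 in control replicates 1 to 4. The median was -0.11 with knockdown replicate 3 left out and -0.48 with replicate 2 left out, and cyclic loess and further quantile normalization gave -0.15 and -0.18. The 6 measured core subunits, those of the conserved catalytic core, had a median of -0.19, with 5 lower. The 9 Ndufb genes, accessory subunits of the membrane arm, were all lower with a median of -0.45, from -0.73 to -0.13. The 13 Ndufa genes were all lower too, with a median of -0.22. The remaining 6 accessory genes had a median of -0.23. The differences between these classes were not tested.

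Ndufa1, a small membrane subunit essential for assembly of complex I, had the smallest p of the 81 genes. Its log2 level was 9.0, 8.87, 9.38 and 8.86 in control replicates 1 to 4 and 8.17, 8.61 and 8.11 in knockdown replicates 1 to 3. All 3 knockdown arrays lay below all 4 controls, with replicate 2 nearest to them. The means were 9.03 ± 0.244 (SD, n = 4) and 8.30 ± 0.272 (SD, n = 3), a difference of -0.73 (SE 0.18, 95% interval -1.16 to -0.30), or 60.2% of the control signal. The adjusted p was 0.825 by limma.

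Ndufb3, an accessory subunit of the membrane arm, had log2 levels of 6.97, 7.02, 7.08 and 6.87 in controls and 6.21, 6.87 and 6.32 in knockdown replicates 1 to 3. The groups did not overlap, but knockdown replicate 2 (6.873) was only just below control replicate 4 (6.874). The difference was -0.52 (SE 0.17). Ndufb5, another subunit of that arm, had levels of 8.97, 8.85, 9.07 and 8.61 in controls and 8.03, 8.79 and 7.90 in knockdown samples, so that replicate 2 lay inside the control range. Its difference was -0.64 (SE 0.23).

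Ndufs3, a core subunit of the arm that faces the matrix, had levels of 8.98, 9.16, 9.06 and 8.89 in controls and 8.54, 8.93 and 8.32 in knockdown samples, a difference of -0.43 (SE 0.16). Ndufa13, also known as Grim19, had levels of 9.15, 9.35, 9.59 and 9.54 in controls and 8.86, 9.31 and 8.87 in knockdown samples, a difference of -0.39 (SE 0.17). In both genes knockdown replicates 1 and 3 were below every control, and replicate 2 was not. Ndufa4, a subunit now assigned to complex IV, and Ndufc2 differed by -0.19 (SE 0.23) and -0.27 (SE 0.18). Ndufb2 differed by as much as Ndufa1, -0.73, but with an SE of 0.32, since its level was 8.18 in knockdown replicate 2 and 6.88 in replicate 3.

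**Figure D3:**
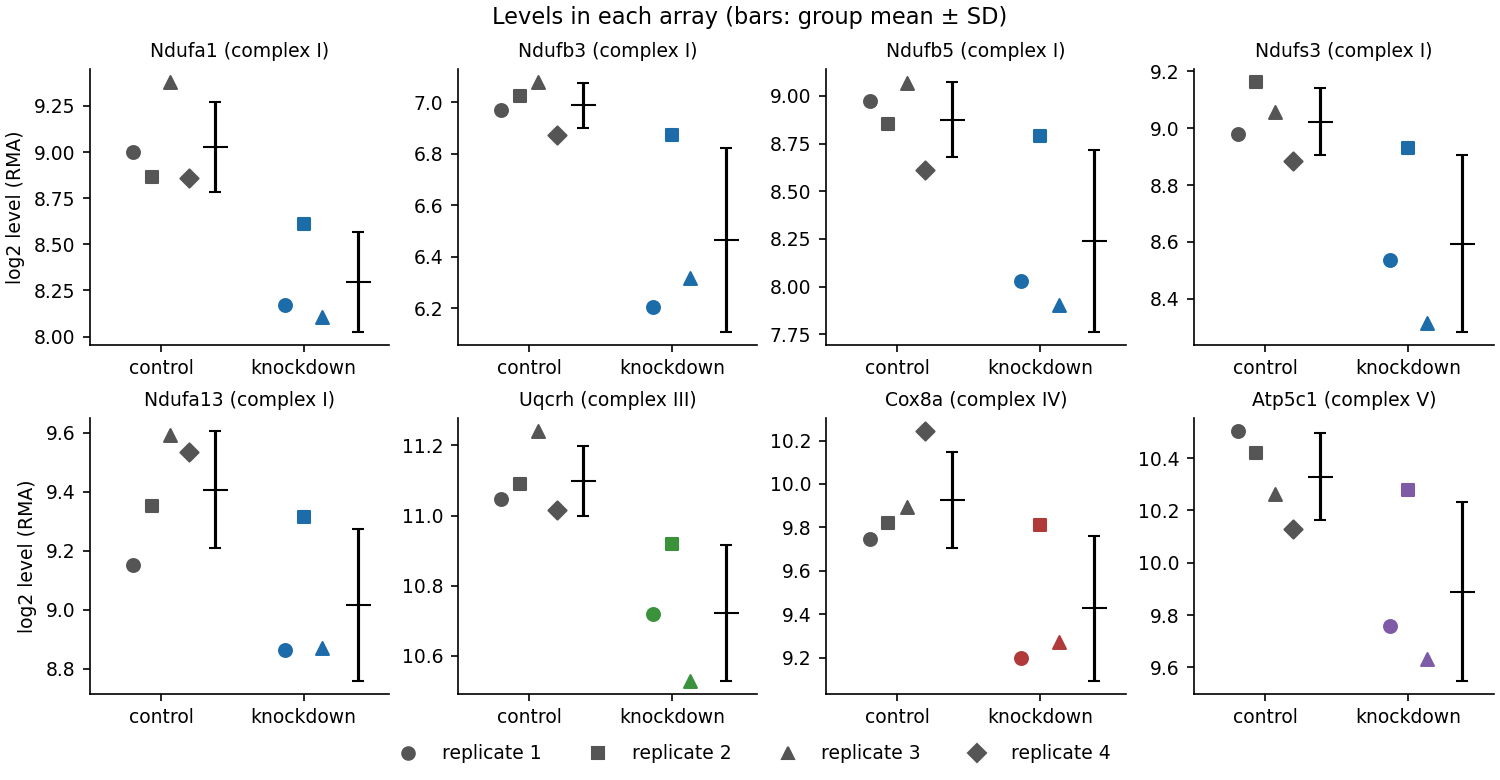
Log2 level (vertical axis) in each array for the 8 chain and synthase genes with an unadjusted p under 0.05, by group (horizontal axis) and replicate (symbols), with bars for the group mean ± SD. Knockdown replicate 2 is the highest knockdown array in each panel, and only Ndufa1, Ndufb3 and Uqcrh have groups that do not overlap.

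The genes of complex II differed little, with differences from -0.15 to 0.19 and a median of -0.065 over its 4 genes. Sdha, the flavoprotein that oxidises succinate, had levels of 8.65, 8.83, 8.399 and 8.46 in controls and 8.46, 8.32 and 8.53 in knockdown samples. The groups overlapped, with a difference of -0.15 (SE 0.14). Sdhb, the iron-sulfur subunit, differed by -0.08 (SE 0.15), and the membrane anchors Sdhc and Sdhd by -0.05 (SE 0.16) and 0.19 (SE 0.29). Sdhd ranged from 7.10 to 8.24 in controls, lowest in replicate 1, and from 7.78 to 8.32 in knockdown samples, and its difference was -0.067 without control replicate 1. The sign of the complex II median was not stable: it was 0.045 after a further quantile normalization, 0.064 after cyclic loess normalization and 0.059 without knockdown replicate 3.

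Complex III, which passes electrons from ubiquinol to cytochrome c, had all 9 measured genes lower, from -0.48 to -0.21 with a median of -0.30. Its level was -0.43, 0.11 and -0.60 in knockdown replicates 1 to 3 and -0.18, -0.032, 0.22 and -0.083 in control replicates 1 to 4. The median was -0.17 with knockdown replicate 3 left out and -0.52 with replicate 2 left out, and it was -0.17 after cyclic loess and -0.19 after further quantile normalization. Uqcrh, the hinge protein that helps cytochrome c1 meet cytochrome c, had levels of 11.05, 11.09, 11.24 and 11.02 in controls and 10.72, 10.92 and 10.53 in knockdown samples. The groups did not overlap, and the difference was -0.38 (SE 0.13), or 77.04% of the control signal. Uqcr11 and Uqcrb, small accessory subunits, differed by -0.48 (SE 0.24) and -0.48 (SE 0.27). The core protein Uqcrc2 differed by -0.38 (SE 0.23), and the Rieske iron-sulfur protein Uqcrfs1 by -0.27 (SE 0.19). Uqcr10, another small subunit, differed by -0.28 (SE 0.26). Cyc1, cytochrome c1 itself, differed by -0.21 (SE 0.25), the smallest difference of the complex, and by 0.003 without knockdown replicate 3.

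The symbols placed in complex IV 10 widely expressed genes and 7 that are known mainly from other tissues, such as heart and skeletal muscle, testis or lung. Cox7c was not used, and Ndufa4 was counted in complex I by its symbol. Over the 10 widely expressed genes 8 were lower, with a median of -0.19, and over the 7 others 3 were lower, with a median of 0.0033. The median difference of complex IV, over all 17, was -0.11. It was -0.23 with knockdown replicate 2 left out, -0.042 after cyclic loess, -0.067 after further quantile normalization and -0.22 with the array medians set equal. Cox8a, a small subunit of the membrane part, had the smallest p of the complex. Its levels were 9.75, 9.82, 9.89 and 10.2 in controls and 9.20, 9.81 and 9.27 in knockdown samples, a difference of -0.50 (SE 0.19). Knockdown replicate 2 lay inside the control range, while the other two arrays were below it. Cox5a and Cox5b differed by -0.45 (SE 0.25) and -0.35 (SE 0.20), and Cox6a1 by -0.23 (SE 0.13). Cox6b1, a subunit on the side of the intermembrane space, lay between 11.75 and 11.997 in controls and between 11.64 and 11.78 in knockdown samples, a difference of -0.14 (SE 0.11). Cox4i1 and Cox7a2 differed by -0.11 (SE 0.13) and -0.16 (SE 0.18), within the spread of the arrays. Cox6c and Cox7b were higher by 0.08 (SE 0.10) and 0.10 (SE 0.19), and a second probe set of Cox7b gave -0.085. With the array medians set equal, both changed sign, to -0.022 for Cox6c and -0.0087 for Cox7b.

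The tissue-restricted genes of complex IV were dim, and RMA compresses differences of dim probe sets. Cox4i2, the form of subunit 4 known from lung and from mural cells of vessels, had levels of 4.68, 4.45, 4.64 and 4.91 in controls and 5.42, 4.68 and 4.92 in knockdown samples. It was highest in knockdown replicate 1, and the difference was 0.33 (SE 0.20). The 8 mural cell markers had their highest level in the same array, 1.38 above the control mean as a median, against 0.37 and -0.070 in knockdown replicates 2 and 3 and 0.48 in control replicate 4. Their part in the Cox4i2 signal was not tested. Cox7a1, the form of heart and skeletal muscle, reached 6.50 in knockdown replicate 2 and 5.96 in control replicate 4 but lay between 4.796 and 5.17 in the other 5 arrays. Its difference of 0.15 (SE 0.47) became -0.41 without knockdown replicate 2. Cox6b2, the testis form, ranged from 5.58 to 6.995 in controls and from 5.08 to 6.12 in knockdown samples (-0.50, SE 0.39). Cox6a2, Cox8b, Cox7b2 and Cox8c differed by 0.0033, 0.0042, -0.026 and -0.040.

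**Figure D4:**
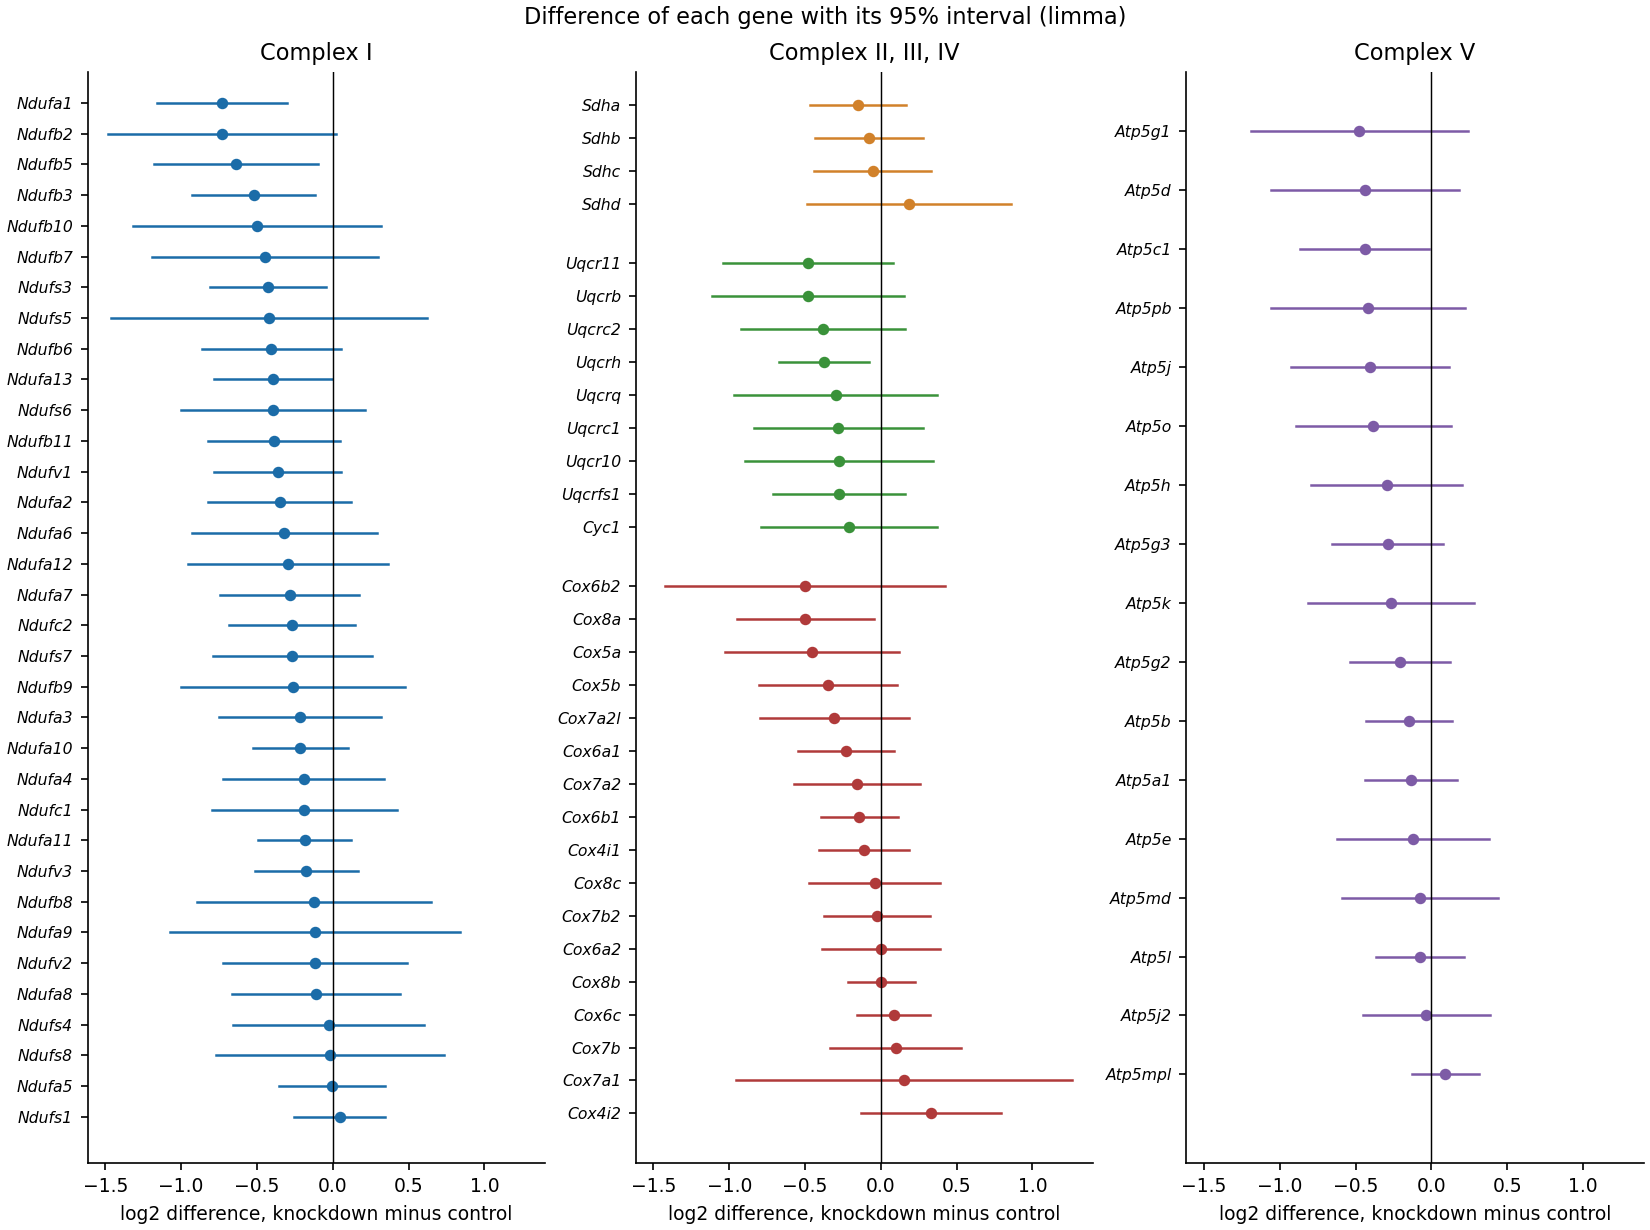
Log2 difference (knockdown minus control, horizontal axis) of each of the 81 genes, sorted within its complex, as a point with limma's 95% interval as a bar. The intervals of 8 genes lie wholly below 0 (Ndufa1, Ndufb3, Ndufb5, Ndufs3, Ndufa13, Uqcrh, Cox8a and Atp5c1) and none lies wholly above it, and these intervals are not adjusted for the number of genes.

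Complex V had 16 of its 17 measured genes lower, with a median of -0.27. Its level was -0.30, 0.11 and -0.51 in knockdown replicates 1 to 3 and -0.092, 0.038, 0.15 and -0.047 in control replicates 1 to 4. Leaving out knockdown replicates 1, 2 and 3 in turn gave medians of -0.15, -0.42 and -0.12, and cyclic loess and further quantile normalization gave -0.14 and -0.16. The 5 genes of the catalytic head and the central stalk had a median of -0.15. Among them Atp5c1, the rotating central stalk, had levels of 10.5, 10.4, 10.3 and 10.1 in controls and 9.76, 10.3 and 9.63 in knockdown samples, a difference of -0.44 (SE 0.18). Atp5d, a small subunit of that stalk, differed by -0.44 (SE 0.26). The catalytic subunit Atp5b and its partner Atp5a1 differed by -0.15 (SE 0.12) and -0.14 (SE 0.13). Atp5e, the smallest subunit of the stalk, differed by -0.12 (SE 0.21).

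The 4 genes of the peripheral stalk, which holds the catalytic head still while the rotor turns, were all lower with a median of -0.39. Atp5j and Atp5o differed by -0.40 (SE 0.22) and -0.38 (SE 0.22). The 5 small membrane subunits had a median of -0.075 and included Atp5mpl, the only higher gene of the complex (0.09, SE 0.09; -0.015 with the array medians set equal). Atp5l, one of the small membrane subunits, differed by -0.07 (SE 0.12). Atp5l and Atp5e changed sign after cyclic loess normalization, to 0.051 and 0.0036.

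The 3 genes Atp5g1, Atp5g2 and Atp5g3 encode precursors of the same mature subunit c, which forms the rotor ring in the membrane. Atp5g1 had levels of 9.38, 10.1, 10.3 and 10.2 in controls and 9.19, 10.1 and 9.28 in knockdown samples. Control replicate 1 was nearly as low as the low knockdown arrays, and the difference was -0.48 (SE 0.31). Atp5g3 had levels of 10.6, 10.5, 10.4 and 10.7 in controls and 9.98, 10.5 and 10.3 in knockdown samples, a difference of -0.29 (SE 0.16). Atp5g2 differed by -0.21 (SE 0.14), from a control level of 11.1 ± 0.0682 (SD, n = 4), and was low only in knockdown replicate 3 (10.6). Across the 81 genes 16 had further probe sets, 24 in all, and only that of Cox7b differed in sign from the one used. Chain and synthase genes have many processed copies in the genome, and probe sets may share signal with them.

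The genes' promoters were searched for 3 short motifs linked to nuclear control of mitochondrial genes. RefSeq promoter windows (GRCm38.p6, from 250 bases before the first transcribed base to 50 bases from it on) were held for 66 of the 81 genes. GCGCATG, part of the palindromic site of the factor NRF1, occurred on either strand in 13 of the 66 (19.7%), against 5.4% of 17492 protein-coding genes. CCGGAAG, an ETS core as bound by GABP, occurred in 17 (25.8%, against 12.9%), and AAGATGG, a core of YY1 sites, in 10 (15.2%, against 7.18%). A match is a description of the sequence and not a bound site. Matches on both strands overlap where the NRF1 palindrome is complete, and the 3 motifs share no letters where they were found. The 32 genes with any match had a median difference of -0.22, and the 34 without a match had one of -0.29. Of the 8 genes with an unadjusted p under 0.05, Ndufs3, Uqcrh and Cox8a held a match, an ETS core in each.

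The windows of these 3 genes are shown first, as those of the 8 genes that held a motif. Atp5k follows for its complete NRF1 palindrome beside an ETS core, and Ndufs7 and Ndufb8 for the YY1 core just after the start. Each is written 5′ to 3′ on the gene's strand, and capitals mark the motif matches on either strand.
Uqcrh, chr4:116075021-116075320, minus strand: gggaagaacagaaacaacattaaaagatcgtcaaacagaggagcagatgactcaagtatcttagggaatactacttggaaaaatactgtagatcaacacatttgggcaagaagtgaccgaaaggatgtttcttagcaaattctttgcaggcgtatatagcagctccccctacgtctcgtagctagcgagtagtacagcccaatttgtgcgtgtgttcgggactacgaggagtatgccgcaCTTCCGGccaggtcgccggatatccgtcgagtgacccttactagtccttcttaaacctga
Ndufs3, chr2:90904672-90904971, minus strand: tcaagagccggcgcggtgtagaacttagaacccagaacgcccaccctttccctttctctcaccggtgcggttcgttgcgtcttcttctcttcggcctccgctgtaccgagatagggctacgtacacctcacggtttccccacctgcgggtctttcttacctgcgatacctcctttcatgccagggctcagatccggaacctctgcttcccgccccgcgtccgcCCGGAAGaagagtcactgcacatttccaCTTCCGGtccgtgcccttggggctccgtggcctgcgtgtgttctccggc
Cox8a, chr19:7217567-7217866, minus strand: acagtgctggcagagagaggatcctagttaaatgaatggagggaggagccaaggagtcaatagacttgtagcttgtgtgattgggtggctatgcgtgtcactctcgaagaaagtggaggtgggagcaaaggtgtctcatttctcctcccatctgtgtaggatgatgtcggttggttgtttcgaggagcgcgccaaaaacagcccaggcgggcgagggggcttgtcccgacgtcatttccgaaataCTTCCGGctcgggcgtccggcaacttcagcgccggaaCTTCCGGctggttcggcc
Atp5k, chr5:108434350-108434649, minus strand: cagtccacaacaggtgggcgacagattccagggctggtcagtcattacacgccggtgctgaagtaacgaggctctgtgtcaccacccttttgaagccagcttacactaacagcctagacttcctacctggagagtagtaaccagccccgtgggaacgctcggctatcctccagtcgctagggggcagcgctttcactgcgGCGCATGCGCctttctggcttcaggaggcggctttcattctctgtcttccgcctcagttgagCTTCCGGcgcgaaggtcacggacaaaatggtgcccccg
Ndufs7, chr10:80249199-80249498, plus strand: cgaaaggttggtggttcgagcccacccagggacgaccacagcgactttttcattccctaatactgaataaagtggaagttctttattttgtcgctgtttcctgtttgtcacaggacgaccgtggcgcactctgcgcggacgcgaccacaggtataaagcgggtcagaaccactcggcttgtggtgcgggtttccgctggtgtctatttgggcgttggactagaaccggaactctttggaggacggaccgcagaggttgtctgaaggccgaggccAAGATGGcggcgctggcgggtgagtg
Ndufb8, chr19:44555393-44555692, minus strand: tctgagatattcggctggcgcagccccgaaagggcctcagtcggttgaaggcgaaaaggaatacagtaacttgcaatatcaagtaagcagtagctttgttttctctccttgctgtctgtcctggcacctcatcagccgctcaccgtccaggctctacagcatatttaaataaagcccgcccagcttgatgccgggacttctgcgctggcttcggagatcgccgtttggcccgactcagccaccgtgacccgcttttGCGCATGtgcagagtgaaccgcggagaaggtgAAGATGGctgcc

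The YY1 core had a shared position that was noticed after the search. In 8 of the 10 genes it lay on the gene's own strand and began 22 to 38 bases after the first transcribed base, as it does at 24 bases in Ndufs7 and 38 in Ndufb8. Counted over windows, 8 of 71 (11.3%) held it 20 or more bases after that base, against 0.945% of 21263 windows of protein-coding genes. The motif contains ATG, the letters of a start codon, and whether these matches mark translation starts was not tested. The 10 genes with this motif had a median difference of -0.20, and the 56 without it had one of -0.28.

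Among other genes of mitochondrial respiration, grouped by role, the share lower differed between lists, and 0 passed limma's test over all genes in any of them. It was 93.8% for the citric acid cycle, 87.5% for import and 76.2% for assembly factors, against 50.2% of all genes. For regulators of biogenesis it was 68.4%, and for other genes of the chain 54.5%. Assembly factors, which build the complexes without being part of them, had 32 of 42 measured genes lower with a median of -0.22. Ecsit, a complex I assembly factor, had levels of 6.94, 6.69, 6.80 and 6.21 in controls and 5.86, 5.79 and 5.90 in knockdown samples. All 3 knockdown arrays were below all controls, replicate 2 included, a difference of -0.81 (SE 0.18). Uqcc3, of complex III, differed by -1.09 (SE 0.39), with knockdown replicate 2 (6.47) inside the control range. Coa7 went the other way, from 4.76, 4.90, 4.99 and 4.70 in controls to 5.24, 6.29 and 5.68 in knockdown samples (0.90, SE 0.24).

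Enzymes of the citric acid cycle, which supply NADH and succinate to the chain, had 15 of 16 genes lower, with a median of -0.28. Their level was -0.43, -0.0016 and -0.52 in knockdown replicates 1 to 3, the same order of arrays as in the chain. Mdh2 differed by -0.41 (SE 0.15), Pdha1 of the pyruvate dehydrogenase that feeds the cycle by -0.47 (SE 0.17), and Suclg1 by -0.46 (SE 0.26). Genes of protein import into mitochondria had 21 of 24 lower with a median of -0.18, among them Tomm34 (-0.45, SE 0.16), Timm50 (-0.52, SE 0.24) and Tomm5 (-0.71, SE 0.34). Regulators of mitochondrial biogenesis and of mitochondrial DNA had 13 of 19 lower with a median of -0.028. Tfam, which packages and transcribes mitochondrial DNA, differed by -0.48 (SE 0.20), Mterf3 by -0.69 (SE 0.26) and Polg2 by 0.48 (SE 0.18).

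Other genes of the chain, including the mobile carrier cytochrome c, had 6 of 11 lower with a median of -0.060. Ndufab1, the acyl carrier protein that is also part of complex I, differed by -0.53 (SE 0.20), and the electron transfer flavoprotein Etfb by -0.50 (SE 0.30). Ndufa4l2, a relative of Ndufa4 that is induced by low oxygen, had levels of 3.77, 4.27, 4.25 and 5.37 in controls and 7.08, 6.30 and 5.79 in knockdown samples. It was higher in every knockdown array than in every control, a difference of 1.97 (SE 0.43). Its highest control was replicate 4 and its highest knockdown array replicate 1, the arrays with the highest endothelial markers in their groups, and the mural markers were highest there too. The part of those cells in the Ndufa4l2 signal was not tested.

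**Figure D5:**
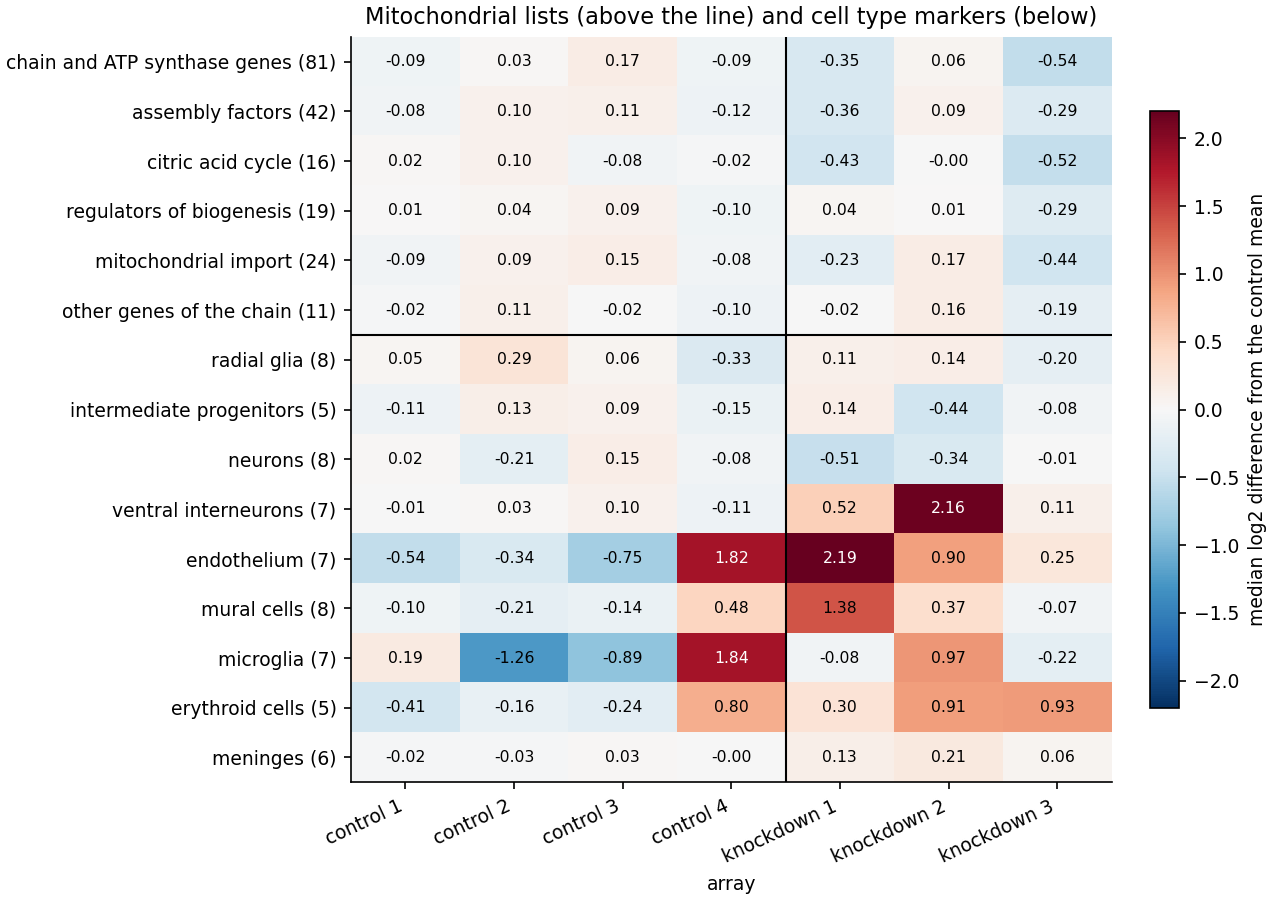
Median log2 difference from the control mean (colour and printed value) over the genes of each list (rows, number of genes in brackets) in each of the 7 arrays (columns). Chain and synthase genes, assembly factors, the citric acid cycle and import are low in knockdown replicates 1 and 3 and near or above 0 in replicate 2, while ventral interneuron markers are highest in knockdown replicate 2 (2.16) and endothelial markers in knockdown replicate 1.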

How the data were processed

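RNA of 7 samples was hybridised to 1 array each after whole-transcriptome amplification, per the labels' protocols. The deposited values are log2 signals. The submitters' processing notes name RMA and Affymetrix Expression Console 1.2. No genome build is given. Of 35556 probe sets, 21789 had exactly 1 symbol in the array annotation, updated by Entrez identifier through RefSeq (GRCm38.p6) for 21698. Where a gene had several, the probe set of highest mean was used.

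Groups were compared with limma 3.58.1 (R 4.3.3; lmFit and eBayes, two-sided, 5 residual and 2.36 prior degrees of freedom), with Benjamini-Hochberg adjustment over 19938 genes and a threshold of 0.05. No list was tested. On simulated data of 19938 genes, the test recovered 52% of the genes given a change of 1 log2 unit. It recovered 85% of the genes given 2 log2 units, and 8 calls were false. The differences of the chain and synthase genes were smaller, from -0.73 to 0.33. Recovery of changes of that size was not tested. Precision is limited by the number of arrays.

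The genes followed and all lists were chosen with earlier results of these data known. The named genes were, per complex, up to 5 with the smallest p and 2 with the highest level, the Sdh genes, subunit c genes and tissue-restricted forms with their partners, and 3 per related list. Ndufb2, Ndufs1, Cyc1, Cox6c, Atp5a1, Atp5b and Atp5mpl were named after their values were seen, as was Dlx2, and the 20-base limit for the YY1 core was set then too. Alternatives covered the eBayes prior, array weights, scaling, a filter on dim genes, the probe sets per gene, the replicate number as a block and each array left out.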

Additional observations from a re-analysis of the deposited data

Results flagged for a closer look

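In 5 of 71 sets of control values examined, 1 array stood apart from the other 3 by more than Dixon's limit. Chance alone flags about 1 set in 20 (5%). All sets, of single genes or of medians over genes, came from the same 4 control arrays and were not independent. The number flagged therefore cannot be judged by that rate. Atp5d was 9.245 in control replicate 1, and 9.94 to 10.1 in the others. Uqcr11 was 9.091 in the same array, and 9.56 to 9.65 in the others. Atp5b was 10.617 there, and 10.77 to 10.79 in the others. Cox7a2 was 9.268 in control replicate 4, and 9.74 to 9.79 in the others. Sdhc was 9.29 in control replicate 3, and 9.399 to 9.403 in the others. Each of these was the lowest control.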

How the results depend on the processing

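No gene passed over the whole table under the alternatives run, including an adjusted p under 0.1, and the smallest adjusted p among them was 0.168, without knockdown replicate 2. The median of the 81 genes stayed below 0 throughout, from -0.44 to -0.12 with 1 array left out. With the values as deposited 8 of these genes (9.88%) were lower at an unadjusted p under 0.05, against 3.61% of all genes. Of the 2136 bright genes 10.4% were, and the other settings were set against all genes only. Of the 81 genes the count was 13 with equal array medians (16%, against 7.56%). It was 5 after cyclic loess (6.17%, against 2.91%) and 5 after further quantile normalization (6.17%, against 4.02%). Without the dimmest 50% of genes it was 4 (5.19%, against 4.79%). With 1 array left out it was 1 to 33. These ends were 1.23% without knockdown replicate 3 (against 2.39%) and 40.7% without knockdown replicate 2 (against 7.63%).

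The median difference of complex II was -0.17 with equal array medians, 0.045 after quantile and 0.064 after cyclic loess normalization, and -0.0987 to 0.059 with 1 array left out. The median difference of complex IV was -0.22 with equal array medians, -0.067 after quantile and -0.042 after cyclic loess normalization, and -0.23 to -0.087 with 1 array left out. After cyclic loess normalization the median difference of complex I was -0.15, the median difference of complex III was -0.17 and the median difference of complex V was -0.14. The cause was not tested.

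Of 826 values of named chain and synthase genes under the alternatives, 38 changed sign, most of them of genes with a difference near 0. With array weights these were Cox8b (-0.0078) and Sdhc (0.0071). With equal array medians they were Atp5mpl (-0.015), Cox6a2 (-0.10), Cox6c (-0.022), Cox7b (-0.0087), Cox8b (-0.10) and Ndufs1 (-0.061). After a further quantile normalization they were Atp5l (0.013), Cox6a2 (-0.078), Cox8b (-0.060), Sdhb (0.019) and Sdhc (0.072). After cyclic loess normalization they were Atp5e (0.0036), Atp5l (0.051), Cox4i1 (0.017), Cox6a2 (-0.035), Cox8b (-0.042), Sdhb (0.053) and Sdhc (0.076), and for its other probe set Cox7b (-0.085). With 1 array left out the ranges were -0.32 to 0.056 for Atp5e, -0.15 to 0.12 for Cox6a2, -0.41 to 0.44 for Cox7a1, -0.019 to 0.20 for Cox7b, -0.16 to 0.044 for Cox7b2, -0.043 to 0.042 for Cox8b, -0.15 to 0.12 for Cox8c, -0.49 to 0.003 for Cyc1, -0.028 to 0.13 for Ndufs1, -0.21 to 0.13 for Sdhc and -0.067 to 0.32 for Sdhd.

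With the replicate number as a block, the median of the 81 genes was -0.28 with 72 lower, and 0 genes passed. At an unadjusted p under 0.05, 8 of them were lower (9.88%, against 4.22% of all genes). Deviations of same-numbered arrays correlated at 0.028, -0.051 and 0.072 across genes, so the numbers were not taken to pair the samples.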
